A study of Homo sapiens with 9 samples.

Results

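Gene expression in BJ fibroblasts that carried active RASG12V and a knockdown of p53 was set against control BJ fibroblasts without active RAS. Of 13745 genes in the deposited table, 12481 had a highest value of at least 40 over the 9 libraries and were compared, in 2 of the 9 libraries: 1 library of RAS with p53 knockdown and 1 control library. The study profiled polyA RNA of BJ cells, human skin fibroblasts immortalised with the telomerase subunit hTERT, and asked which genes differ between cells that enter senescence after RAS activation and cells that bypass it. The control carried the non-targeting hairpin 500. The 2 senescent libraries, used here to define the genes that RAS changed, carried RASG12V with the non-targeting hairpin 500 or 507, and the p53 knockdown library carried RASG12V with a hairpin against p53 that the labels do not name. The labels give 4-OHT (4-hydroxytamoxifen, a drug used to switch on a RAS fusion protein) for 14 days for every library, although the design text calls the non-RAS cells untreated. The remaining 5 libraries carried RASG12V with a knockdown of lncRNA-OIS1 (4 libraries, 1 hairpin each) or of BRD7 (1 library).

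RAS is a small GTPase that passes growth factor signals through RAF and MEK to ERK, and ERK output includes transcription factors of the ETS and AP-1 families as well as feedback inhibitors such as the SPRY and DUSP proteins. In primary fibroblasts a permanently active RAS ends in senescence, a lasting arrest in which p53 raises the CDK inhibitor p21 (gene CDKN1A) and the RB family, through the DREAM and RB-E2F complexes, shuts off genes of replication and mitosis. Cells in which p53 is low can go on dividing under the same oncogene, so the comparison with control asks which RAS changes remain when p53 is low.

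Values are normalised read counts with a floor of 20, on a scale that is the same in all libraries, so a level at 20 means only that the gene was at or under the floor. HRAS, which codes for a RAS protein, had 26556.6 in the control, 12051.4 and 11321.3 in senescence and 23342.7 with p53 knockdown, and these values do not tell a transgene from the cells' own gene.

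Each side of the comparison is 1 library, so no difference from control has a replicate check and no p-value is given. The 2 senescent libraries, the only pair of like libraries set beside it, differed by a log2 SD of 0.145 per gene, with 29 genes (0.232%) at least 2-fold apart and 0 at least 4-fold apart. The control was more than 2-fold above every other library for 490 genes and more than 2-fold below every other for 315, against 14 and 24 for the p53 knockdown library. Both comparisons with control share that single library. A batch or culture difference of the control cannot be told apart from the effect of RAS. The fibroblast markers VIM and THY1 were present, at 39745.4 and 6989.6 in the control and 110361 and 4356.7 with p53 knockdown. Of 20 fibroblast and mesenchymal markers, 4 were at least 2-fold above control and 9 below (median log2 difference -0.81), with COL1A1, DCN and LUM among those below. Of the markers of other cell types, 3 of 10 epithelial, 2 of 10 leukocyte and 1 of 8 endothelial genes were measured. Their summed values were 3687, 196.5 and 22.2 in the control, and 1520, 61.3 and 266.9 with p53 knockdown. PTPRC, the pan-leukocyte antigen CD45, had 156.6 in the control, most of the leukocyte sum there, and was at the floor in the senescent and p53 knockdown libraries. In bulk RNA, fewer cells of a kind and less RNA per cell cannot be told apart.

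With RAS and p53 knockdown, 1230 genes (9.85%) were at least 2-fold higher than in the control and 1352 (10.8%) at least 2-fold lower. The 2-fold counts of each gene list given later are to be read beside these shares. At 4-fold the counts were 244 (1.95%) and 397 (3.18%), and at 8-fold 95 (0.761%) and 156 (1.25%). The other 9899 genes (79.3%) lay under 2-fold from control, and the median log2 difference of all genes was 0.04. For the 2 senescent libraries together, at least 2-fold from control, the counts were 979 higher (7.84%) and 1154 lower (9.25%). Over all genes, the nearest to the 2-fold line above control were ANKRD39 inside, at 40.1 in the control and 80.2 with p53 knockdown, and NUDC outside, at 1287.7 and 2574.2.

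**Figure D1:**
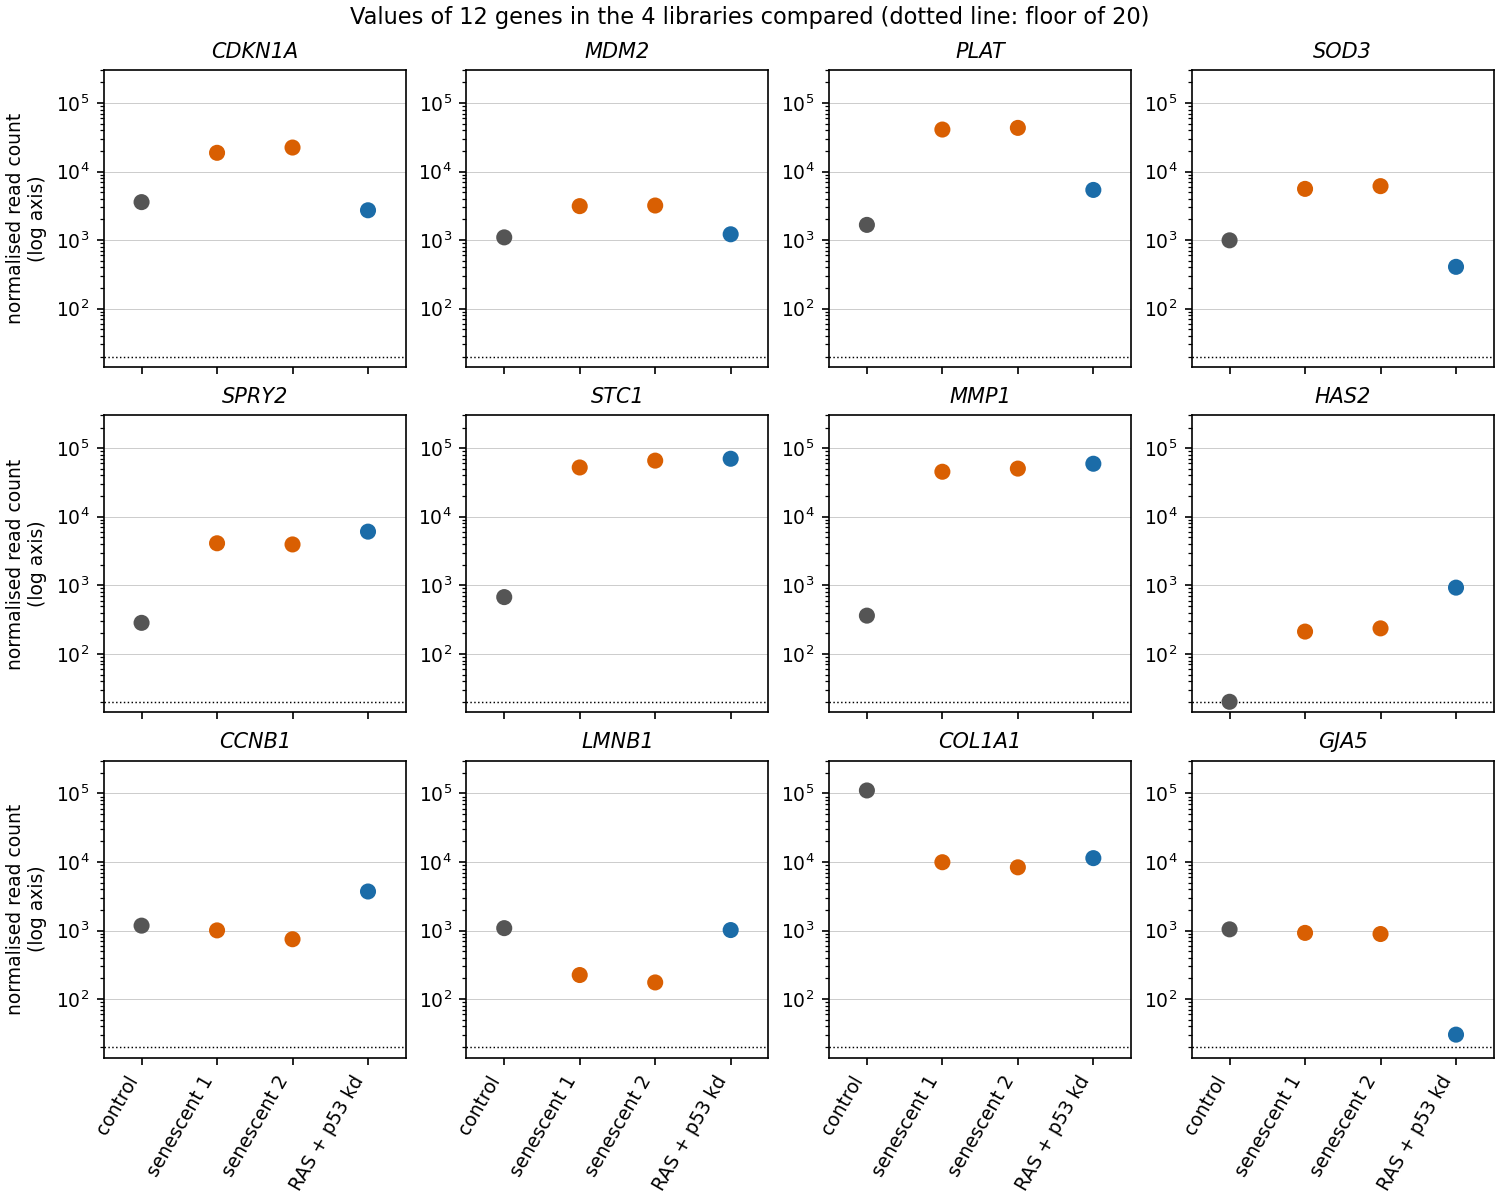
Normalised read counts (log axis) of 12 genes in the control, the 2 senescent libraries and the library of RAS with p53 knockdown, 1 point a library, with the floor of 20 dotted. CDKN1A and SOD3 are lowest with p53 knockdown, MMP1, STC1 and SPRY2 are high in all 3 RAS libraries, and CCNB1 is highest with p53 knockdown.

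The 15 genes furthest above control with p53 knockdown were led by MMP1, STC1 and TRPA1. MMP1, the interstitial collagenase, had 361 in the control, 45321.7 and 50370.2 in senescence and 59295.6 with p53 knockdown, a 164-fold difference from control. STC1, the secreted glycoprotein stanniocalcin, had 672.7, then 52307.1 and 65854.7, then 70122, a 104-fold difference. TRPA1, an irritant-gated cation channel, lay at the floor of 20 in control cells and had 2543.1 and 2282.1 in senescence and 1953 with p53 knockdown, at least 97.7-fold above control. In all 3 genes the 3 RAS libraries stood together, far above the control. The other genes among the 15 furthest above control were at least 30.9-fold higher. They included TM4SF1 (55.8 in the control, 4707.1 with p53 knockdown), a tetraspanin-like surface protein, PODXL (56.8 and 3406.8), a surface sialomucin, and DOCK4 (48.6 and 3135.9), an intracellular activator of RAC. In senescence PODXL had 1418 and 1192.1, under the value with p53 knockdown.

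The genes furthest below control were SYPL2, with 13043.1 in the control and 81 with p53 knockdown, and IGFBP5, an IGF binding protein, with 91003.3 and 574.3. In the senescent libraries SYPL2 stood at 211.1 and 215.7 and IGFBP5 at 2637.8 and 2205.7, so both genes were lowest with p53 knockdown. ALDH1A1, an enzyme that makes retinoic acid, had 18967.2 in the control, 140 and 190.2 in senescence and 137.7 with p53 knockdown. SULF1, a sulfatase that edits heparan sulfate chains, had 2869.2 in the control and was at the floor in all 3 RAS libraries, at least 143-fold lower. All 15 genes furthest below control were also at least 4-fold below it in both senescent libraries, and all 15 furthest above it were at least 4-fold above it in both.

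Which RAS changes remained was counted over genes at least 4-fold from control in both senescent libraries. Of these, 278 were higher (2.23% of all compared), called raised by RAS, and 321 lower (2.57%), called lowered. Of the 278 genes that RAS raised, 159 (57.2%) were also at least 4-fold above control with p53 knockdown, 68 (24.5%) were 2- to 4-fold above it, 49 (17.6%) lay under 2-fold from control and 2 were at least 2-fold below it. Of the 321 that RAS lowered, 229 (71.3%) were at least 4-fold below control with p53 knockdown, 69 (21.5%) were 2- to 4-fold below, 23 (7.17%) lay under 2-fold from control and 0 were above it by 2-fold. The same control library enters both sides of these counts, so an unusual control value places a gene among those that remained. For 83 of the raised genes the control was at the floor, and for 45 of the lowered genes all 3 RAS libraries were.

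**Figure D2:**
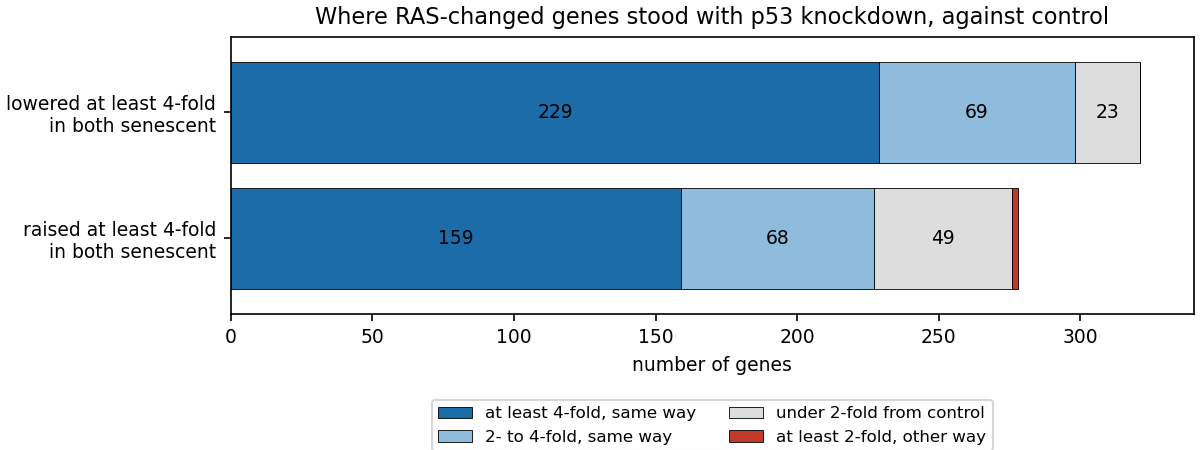
Number of genes by where the p53 knockdown library stood against control, for the 278 genes raised and the 321 genes lowered at least 4-fold in both senescent libraries. Dark blue marks genes still at least 4-fold from control the same way, 159 of the raised and 229 of the lowered genes.

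On the log2 scale the p53 knockdown library held a median of 80.9% of the mean senescent difference for raised genes (quartiles 46.6% and 104%) and 94.7% for lowered genes (quartiles 71.0% and 104%). Against the senescent libraries themselves, p53 knockdown was at least 2-fold below both for 94 of the 278 raised genes and at least 2-fold above both for 15, where over all genes these shares were 5.37% and 6.23%. Of the 321 lowered genes, 65 were at least 2-fold above both senescent libraries and 20 at least 2-fold below both. The raised and lowered genes were chosen by these same senescent values, which favours a p53 knockdown value nearer the control. Their shares are therefore not like those over all genes. For 76 of the lowered genes both senescent libraries were at the floor, where p53 knockdown could not be lower.

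**Figure D3:**
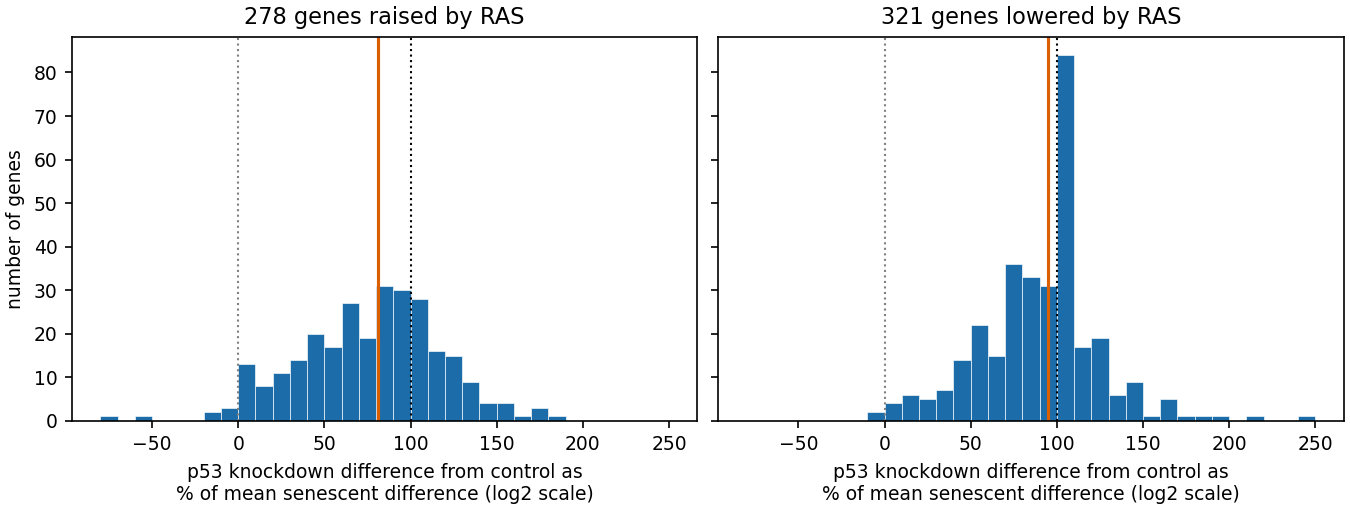
Number of genes (bars 10 percentage points wide) by the log2 difference of the p53 knockdown library from control, as a percentage of the mean log2 difference of the 2 senescent libraries. Dotted lines mark 0% and 100%, the orange line marks the median of 80.9% (raised) or 94.7% (lowered), and 45 lowered genes lie at exactly 100% because all 3 RAS libraries were at the floor.

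Most genes of RAS-ERK output were above control in all 3 RAS libraries. Of 26 measured genes of RAS-MAPK output, 19 were at least 2-fold above control with p53 knockdown and 1 was below. Their median log2 difference was 1.70, beside 1.40 and 1.39 in the senescent libraries and 0.04 over all genes. All 15 members that were at least 2-fold higher in both senescent libraries were at least 2-fold higher with p53 knockdown too, whereas over all genes that held for 522 of 979 (53.3%) of those higher in senescence and for 734 of 1154 (63.6%) of those lower. SPRY2, a feedback inhibitor of receptor signalling, had 283.4 in the control, 4102.7 and 3944.3 in senescence and 6064 with p53 knockdown. DUSP4, a phosphatase of MAP kinases, had 255.8, then 3519.7 and 2888.1, then 3478.1. DUSP6, the ERK phosphatase, had 800.4, then 6649 and 6064, then 4219.4. DUSP6 with p53 knockdown was thus below both senescent libraries, SPRY2 above both and DUSP4 between them. EPHA4, an ephrin receptor, was the member at least 2-fold below control: 1314.7 in the control, 218.6 and 178.4 in senescence and 573 with p53 knockdown.

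Among 21 transcription factors of the AP-1, EGR and ETS families and their partners, 10 were at least 2-fold above control and 2 below. Over all genes these shares were 9.85% and 10.8%. The median log2 difference was 0.94. For 3 of the 21 the control was at the floor, so these could not be lower. The senescent medians were 0.50 and 0.47, with 4 members higher and 3 lower. ETV1, an ETS factor, had 45.2 in the control, 1036 and 1114.7 in senescence and 1285.6 with p53 knockdown. FOSL1, the AP-1 subunit FRA1, had 1133.9, then 2460.4 and 2379.1, then 5498.3, with p53 knockdown above both senescent libraries. FOSL2, a related subunit, went the other way, with 3146.3 in the control, 411.6 and 447.7 in senescence and 749 with p53 knockdown.

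Most p53 targets that were high in senescence were not high with p53 knockdown. Of 47 measured targets, 26 were at least 2-fold above control in both senescent libraries. With p53 knockdown 7 of the 47 were at least 2-fold above control and 9 below, beside 9.85% and 10.8% of all genes. The median log2 difference was 0.05, beside 1.09 and 1.17 in the senescent libraries. Of the 26, 16 lay under 2-fold from control, 3 (GDF15, SPATA18 and ZMAT3) were at least 2-fold below it and 7 were at least 2-fold above it. Over all 979 genes higher in senescence, 447 (45.7%) lay under 2-fold, 10 were below and 522 (53.3%) above. CDKN1A, which codes for p21, had 3578.4 in the control, 18745.7 and 22372.6 in senescence and 2721.1 with p53 knockdown. MDM2, the ubiquitin ligase that degrades p53, had 1095.2, then 3126.9 and 3192.3, then 1214.9. ZMAT3, an RNA-binding protein, had 1600.3, then 5036.2 and 5112.7, then 791.2. For CDKN1A and ZMAT3 the p53 knockdown library was below the control as well as below both senescent libraries. GDF15, a secreted stress cytokine, had 192.2 in the control, 462 and 601.3 in senescence and 67.3 with p53 knockdown.

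The 7 listed p53 targets that stayed at least 2-fold above control were E2F7, PMAIP1, PRDM1, GADD45A, AEN, TNFRSF10A and TNFRSF10D. E2F7, an atypical E2F that represses cell cycle genes, had 247.4 in the control, 3224.1 and 3286.8 in senescence and 4023.4 with p53 knockdown. PMAIP1, the BH3-only protein NOXA, had 337.8, then 4485.3 and 4994.2, then 2228.2. E2F7 was thus above both senescent libraries and PMAIP1 at least 2-fold below both. BTG2, an antiproliferative factor, had 92.3 in the control, 183.3 and 295.4 in senescence and was at the floor with p53 knockdown, at least 4.62-fold below control.

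A sequence matching the p53 site was searched in promoter windows of 300 bases, from 250 before to 50 after the RefSeq gene start, on both strands. The site was written as 2 decamer half-sites 0 to 13 bases apart. It was found in 4 of 9820 windows of compared genes (0.0407%), those of PTCHD4, DDB2, DYNC2H1 and MCC. Of 36 windows matched for the listed p53 targets, 1 held the site. The windows of PTCHD4 and DDB2 are shown because both genes are known p53 targets. PTCHD4, a patched-domain protein, lay at the floor in control cells and with p53 knockdown, and had 156.6 and 160.8 in the senescent libraries. DDB2, a DNA damage recognition protein, had 320 in the control, 432.1 and 465.2 in senescence and 336.1 with p53 knockdown. DYNC2H1, a motor of cilia, had 722.8, then 1142.6 and 1157.1, then 1107, and MCC had 159.8, then 644.7 and 623.2, then 263.2. With p53 knockdown DYNC2H1 was thus near its senescent values, and the other 3 genes were below theirs. The PTCHD4 window is chr6:48111148-48111447 (minus strand, GRCh38.p14), with the site, in capitals, starting 20 bases before the gene start. The DDB2 window is chr11:47214724-47215023 (plus strand), with the site starting 5 bases after the gene start. Both windows span the gene start, so their last 50 bases are transcribed. A match in these letters is a description and does not show binding, and its part in the values was not tested.
PTCHD4: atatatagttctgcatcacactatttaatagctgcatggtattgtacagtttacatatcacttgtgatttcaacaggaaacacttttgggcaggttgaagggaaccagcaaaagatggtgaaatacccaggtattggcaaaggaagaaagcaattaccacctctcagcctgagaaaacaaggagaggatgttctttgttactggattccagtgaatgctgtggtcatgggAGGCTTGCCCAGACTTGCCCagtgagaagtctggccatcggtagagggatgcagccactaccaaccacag
DDB2: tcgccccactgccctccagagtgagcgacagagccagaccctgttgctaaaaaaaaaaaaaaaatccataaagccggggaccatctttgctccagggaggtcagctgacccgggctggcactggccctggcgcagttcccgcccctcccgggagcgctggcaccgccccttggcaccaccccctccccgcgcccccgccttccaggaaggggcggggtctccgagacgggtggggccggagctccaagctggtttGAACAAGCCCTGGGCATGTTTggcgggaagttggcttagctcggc

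Mitotic genes stood above the control and above the senescent libraries. Of 57 measured genes, 39 were at least 2-fold above control with p53 knockdown and 0 below, with a median log2 difference of 1.22. In the senescent libraries 0 were at least 2-fold higher and 18 lower, with medians of -0.77 and -1.19. All 57 were at least 2-fold above both senescent libraries, where over all genes 6.23% were. MKI67, the proliferation antigen Ki-67, had 3913.6 in the control, 1231.3 and 972.4 in senescence and 6931.1 with p53 knockdown. CCNB1, the cyclin that starts mitosis, had 1178.2, then 1004.3 and 746.4, then 3707.9. PTTG1, the securin that holds back chromatid separation, had 489.9, then 502.4 and 476, then 2048. In each of these genes the p53 knockdown library was the highest of the 4 and both senescent libraries were under the control or, for PTTG1, on either side of it.

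Genes of DNA replication and E2F targets lay nearer the control. Of 53, 9 were at least 2-fold above it with p53 knockdown and 2 below, with a median log2 difference of 0.62, while in the senescent libraries 1 was higher and 23 lower (medians -0.92 and -1.06). Of those 23, 19 lay under 2-fold from control with p53 knockdown. MCM10 and POLE2 were at least 2-fold above it, and E2F2 and E2F8 at least 2-fold below it. Over all 1154 genes lower in both senescent libraries, 404 lay under 2-fold from control with p53 knockdown. Another 16 were at least 2-fold above it and 734 at least 2-fold below it. TK1, thymidine kinase, had 1757.4 in the control, 409.6 and 322.3 in senescence and 1539.1 with p53 knockdown. MCM6, a subunit of the replicative helicase, had 1314.2, then 287.4 and 204.6, then 702, between the senescent libraries and the control. E2F2, an activating E2F, had 116.8 in the control, was at 20 in both senescent libraries and had 24.2 with p53 knockdown. Of 26 genes of homologous recombination and Fanconi repair, 10 were at least 2-fold above control and 0 below (median 0.82). In both senescent libraries 9 of these repair genes were at least 2-fold lower. With p53 knockdown 8 of the 9 lay under 2-fold from control, beside 404 of 1154 over all genes. The remaining 1 was at least 2-fold above control.

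Promoter windows of the mitotic genes were searched for the cell cycle genes homology region (CHR, letters TTTGAA) and the NF-Y box CCAAT, on both strands. Windows were matched for 50 of the 57 genes. CHR was found in 35 of them (70%) and in 13.9% of the 9820 windows, and CCAAT in 40 (80%) and 43.7%. The E2F letters TTTGGCGC, TTTCCCGC, TTTCGCGC or TTTGCCGC were found in 25 of 45 matched windows of the list of DNA replication and E2F targets (55.6%). They were found in 2 of 50 mitotic windows (4%) and in 6.71% of all. The first of these lists takes in E2F targets by name, so its share is not independent of how the list was made. The letters of the AP-1 site, TGANTCA, were found in 0 of 50 mitotic windows and 7.23% of all. None of these motifs contains another, although matches can overlap in a window. The 9820 windows cover 78.7% of compared genes. For the genes RAS raised or lowered, the p53 targets and the RAS-MAPK genes, fewer than 80% of members had a window in most groups. No share of the CHR, CCAAT, E2F or AP-1 letters is therefore given for them. CCNB2 and CDC20 are shown as 2 mitotic genes whose windows hold both motifs. CCNB2, a B-type cyclin, had 484.6 in the control, 298.8 and 236.8 in senescence and 1188.1 with p53 knockdown. CDC20, the activator of the anaphase-promoting complex, had 1041.6, then 624.4 and 461.9, then 3214.2. Capitals mark CHR and CCAAT on either strand in CCNB2, chr15:59104896-59105195 (plus strand, GRCh38.p14), and CDC20, chr1:43358731-43359030 (plus strand). In CCNB2 a CHR starts 29 bases before the gene start, and CCAAT boxes start 54, 87, 120 and 244 bases before it. In CDC20 a CHR starts 65 bases before the gene start, a reversed CHR (TTCAAA) 178 bases before it, and CCAAT boxes 55 and 100 bases before it.
CCNB2: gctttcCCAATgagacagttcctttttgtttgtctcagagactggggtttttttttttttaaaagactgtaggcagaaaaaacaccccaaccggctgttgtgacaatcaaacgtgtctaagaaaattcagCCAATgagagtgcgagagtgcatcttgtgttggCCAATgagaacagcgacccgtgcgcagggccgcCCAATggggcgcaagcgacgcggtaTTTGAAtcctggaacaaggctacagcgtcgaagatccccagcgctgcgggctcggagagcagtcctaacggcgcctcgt
CDC20: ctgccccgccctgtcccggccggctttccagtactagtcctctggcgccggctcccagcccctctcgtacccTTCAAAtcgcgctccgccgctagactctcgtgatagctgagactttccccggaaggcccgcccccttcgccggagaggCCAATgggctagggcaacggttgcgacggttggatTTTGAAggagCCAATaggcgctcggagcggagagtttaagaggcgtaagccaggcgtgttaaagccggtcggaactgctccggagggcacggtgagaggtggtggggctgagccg

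Of 27 CDK inhibitors and senescence regulators, 2 were at least 2-fold above control with p53 knockdown and 5 below (median 0.00), beside 9.85% and 10.8% of all genes. In both senescent libraries 3 were higher and 10 lower. Of those 10, 6 lay under 2-fold from control with p53 knockdown, as did 404 of 1154 (35.0%) over all genes. LMNB1, the nuclear lamin whose loss marks senescent cells, had 1083.3 in the control, 224.3 and 174.9 in senescence and 1015.8 with p53 knockdown. CDKN2C, the CDK inhibitor p18, had 760.2, then 58.7 and 52, then 281.6, so it stood between the senescent libraries and the control. CDKN2B, the CDK inhibitor p15, had 39 in the control, 250.1 and 304 in senescence and 166.2 with p53 knockdown. CDKN2A, which codes for p16 and ARF, was at the floor in all 4 libraries.

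**Figure D4:**
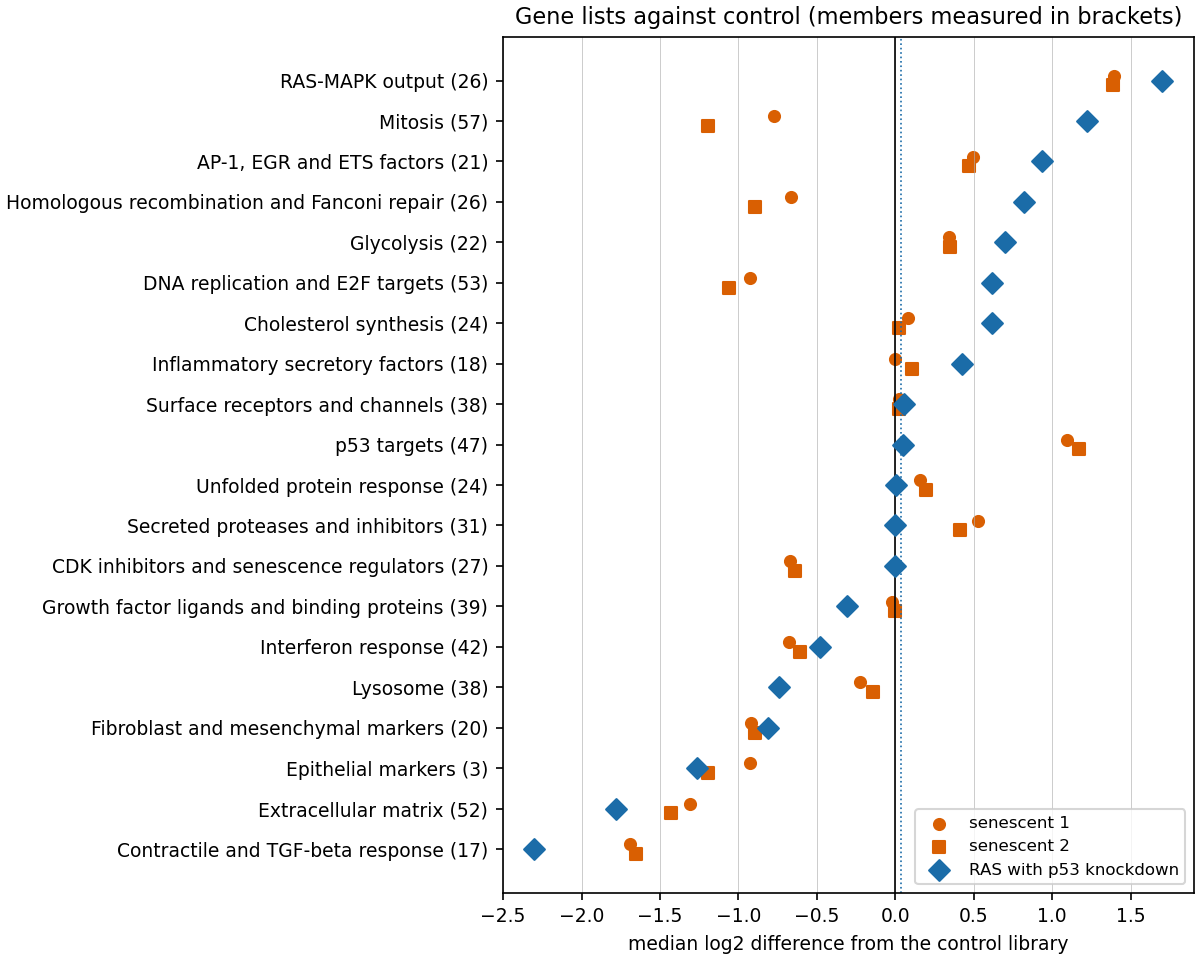
Median log2 difference from control of each gene list with at least 3 measured members, for the senescent libraries (orange) and RAS with p53 knockdown (blue diamonds), with the number of members in brackets and the all-gene median of 0.04 dotted. Mitosis, replication and repair lie right of 0 with p53 knockdown and left of it in both senescent libraries, while RAS-MAPK output, extracellular matrix and contractile genes lie on the same side in all 3.

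Secreted factors were divided. Of 32 inflammatory factors listed, 18 were compared. Of the 18, 7 were at least 2-fold above control with p53 knockdown and 3 below (median 0.42), beside 9.85% and 10.8% of all genes. For 10 of the 18 the control was at the floor, so these could not be lower. All 4 that were higher in both senescent libraries remained higher, as did 522 of 979 (53.3%) over all genes. IL8, the neutrophil chemokine CXCL8, lay at the floor in control cells and had 931.6 and 2021.6 in senescence and 939.3 with p53 knockdown, at least 47.0-fold above control. IL1B, the cytokine interleukin-1 beta, had 23.2, then 1035 and 3344.9, then 465.8, below both senescent libraries. IL6 was at the floor in all 4 libraries. CCL2, a monocyte chemokine, and CXCL12, the ligand of CXCR4, were lower, with 1075 and 426.8 in the control and 78.3 and 32.3 with p53 knockdown.

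Among 31 secreted proteases and inhibitors, 9 were at least 2-fold above control and 8 below, beside 9.85% and 10.8% of all genes. Of the 10 that were at least 2-fold higher in both senescent libraries, 7 were also higher with p53 knockdown and TIMP3, ADAM19 and MMP10 lay under 2-fold from control, a share not far from the 53.3% of all genes at this number. PLAU, the urokinase, had 1033.3 in the control, 26190.7 and 30796.4 in senescence and 17615.8 with p53 knockdown. PLAT, the tissue plasminogen activator, had 1665.7, then 40950 and 43305, then 5388.7. Both plasminogen activators were below the senescent libraries with p53 knockdown, PLAT by 7.60-fold. ADAMTS5, an aggrecanase, had 932.6 in the control, 502 and 457.6 in senescence and 28.6 with p53 knockdown. Of 39 growth factors and their binding proteins, 8 were higher and 17 lower (median -0.31), beside the same shares of all genes. Of 11 higher in both senescent libraries 7 were also higher with p53 knockdown, and of 12 lower 11 were also lower. Over all genes this held for 53.3% and 63.6%. HGF, the ligand of MET, had 25.2 in the control, 224.2 and 282.9 in senescence and 446 with p53 knockdown. IGFBP3 had 10133.4, then 505.4 and 434.3, then 218.

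Most extracellular matrix genes were below control with p53 knockdown, as in senescence. Of 52 measured, 37 were at least 2-fold below control with p53 knockdown and 6 above, with a median log2 difference of -1.78, beside -1.31 and -1.43 in the senescent libraries. Of the 31 that were at least 2-fold lower in both senescent libraries, 29 were also lower with p53 knockdown, COL12A1 lay under 2-fold and COL14A1 was at least 2-fold higher. Over all genes 734 of 1154 (63.6%) were also lower. COL1A1, a chain of type I collagen, had 110361 in the control, 9913.6 and 8350.8 in senescence and 11370.7 with p53 knockdown. DCN, the small proteoglycan decorin, had 11040.1, then 71.7 and 68.2, then 136.1. LUM, the related lumican, had 20683, then 395.9 and 503, then 422.2. All 3 RAS libraries were far below the control for these genes. HAS2, the hyaluronan synthase, was the largest exception, at the floor in the control, at 211.3 and 235.4 in the senescent libraries and at 924.8 with p53 knockdown.

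All 10 contractile and TGF-beta response genes that were at least 2-fold lower in both senescent libraries were also lower with p53 knockdown. Over all genes this held for 734 of 1154 (63.6%). Of 17 contractile and TGF-beta response genes measured, 14 were lower and 1 higher, with a median of -2.30 beside -1.69 and -1.65. ACTA2, smooth muscle actin, had 882.6 in the control, 273.6 and 280.3 in senescence and 86.4 with p53 knockdown. TAGLN, the actin-binding protein transgelin, had 10457, then 1633.9 and 1660.4, then 597.4. Both genes were lowest with p53 knockdown, and ACTA2 also stands in the list of p53 targets. Of 42 interferon response genes, 17 were lower and 2 higher (median -0.48). Of the 16 lower in both senescent libraries, 11 were also lower with p53 knockdown and 5 lay under 2-fold from control, a share near the 63.6% of all genes. STAT2, a transcription factor of the interferon receptor, had 3298.1, then 1101.9 and 979.1, then 578.9.

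Genes of metabolism and of organelles followed. Of 24 cholesterol synthesis genes 6 were at least 2-fold higher with p53 knockdown and 0 lower (median 0.62). Of 22 glycolysis genes 7 were higher and 0 lower (median 0.70). Over all genes 9.85% were higher and 10.8% lower with p53 knockdown. In both senescent libraries 0 cholesterol genes were higher and 2 lower, and 5 glycolysis genes were higher and 0 lower. FDFT1, squalene synthase, had 3045.7 in the control, 5562.7 and 5405.2 in senescence and 8330.2 with p53 knockdown. PDK1, the kinase that holds back pyruvate dehydrogenase, had 203.6, then 990.1 and 946.3, then 975.7. Of 24 unfolded protein response genes 2 were higher and 1 lower (median 0.00), no larger shares than the 9.85% and 10.8% of all genes. Of 38 lysosome genes 0 were higher and 14 lower, with a median of -0.74 beside -0.22 and -0.14 in the senescent libraries, where 2 were higher and 2 lower. GAA, the acid alpha-glucosidase, had 1523.7 in the control, 742 and 862 in senescence and 280.4 with p53 knockdown. FUCA1, a lysosomal fucosidase, had 284.3, then 585 and 623.2, then 87.9, higher than control in the senescent libraries and lower with p53 knockdown. GLB1, the lysosomal beta-galactosidase, had 1389.8, then 1172.6 and 1281.2, then 848.9, under 2-fold from control throughout.

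Of 38 surface receptors and channels, 11 were at least 2-fold above control and 13 below (median 0.05), beside 9.85% and 10.8% of all genes. Of the 13 raised in both senescent libraries, 11 were also higher with p53 knockdown, while CD44 and ITGB3 lay under 2-fold. All 7 lowered in both were also lower. Over all genes 522 of 979 (53.3%) were also higher and 734 of 1154 (63.6%) also lower, and the list numbers are small. NT5E, the ectonucleotidase CD73, had 1465.6 in the control, 24296.7 and 23342.7 in senescence and 19386.3 with p53 knockdown. CHRM2, a muscarinic receptor, had 5921.4, then 36 and 21.1, then 67.6. DPP4, a surface peptidase, had 1230.2, then 1998.8 and 2050.9, then 361.4, below the control with p53 knockdown and above it in both senescent libraries.

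Among the 49 raised genes near control with p53 knockdown, PAPPA, a protease that cleaves IGF binding proteins, had 144.7 in the control, 1334.9 and 1278.2 in senescence and 155.7 with p53 knockdown. CLCA2, a self-cleaving protein, lay at the floor in control cells and with p53 knockdown and had 174.9 and 230.2 in the senescent libraries. SOD3, the extracellular superoxide dismutase, and ADAMTS19, a secreted metalloprotease, were the 2 raised genes found below control. SOD3 had 991.3 in the control, 5581.8 and 6119.4 in senescence and 407.1 with p53 knockdown, and ADAMTS19 had 360.7, then 1771.9 and 1786.9, then 110. Of the 23 lowered genes near control, SCARA3, a scavenger receptor, had 554.8, then 58.9 and 64.2, then 534.6. SCD, the stearoyl-CoA desaturase, had 9913.6, then 1612.6 and 1363.3, then 6794.8. KLF4, a transcription factor, had 147.6, then 25.9 and 32.2, then 150.6.

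A smaller set was far from control with p53 knockdown and near it in the senescent libraries. At least 4-fold from control with p53 knockdown, and under 2-fold in both senescent libraries, 30 genes were higher (0.24%) and 40 lower (0.32%). This set was drawn without the other 5 RAS libraries. 16 of the 30 and 26 of the 40 were at least 4-fold from control the same way in at least 1 of those 5. 1 lncRNA-OIS1 knockdown library among the 5 was more than 2-fold above every other library for 300 genes and below every other for 224. A gene counted here can rest on that library alone. ITGA11 had 3189.8 in the control, 161.3 in that library and 2350.6 to 4282.7 in the rest of the 5. TIE1, an endothelial receptor kinase, had 22.2 in the control, 40.7 and 37.4 in senescence, 266.9 with p53 knockdown and 44.9 to 129.1 in the other 5. IER3, an immediate early gene of ERK signalling, had 415.2, then 505.7 and 607.7, then 2140.7, and 1283.2 to 2873.6 in the other 5. GJA5, the gap junction protein connexin 40, had 1040.2, then 923.4 and 889.2, then 30.3, and in the other 5 RAS libraries it ranged from 20 to 195.1. IER3 was thus also high, and GJA5 also low, in libraries without p53 knockdown. LOX, the enzyme that crosslinks collagen, had 7949.9, then 4884.7 and 4936, then 1066.1, and 1366.4 to 2938.8 in the other 5. WNT5A, a secreted WNT ligand, had 12688.6, then 7733.7 and 6587, then 1954.6, and 2766.9 to 18103 in the other 5. MITF, a transcription factor of the melanocyte lineage, had 1264.4, then 961.3 and 1076, then 164.3, and 213.1 to 551.2 in the other 5. LOX and MITF were thus below both senescent libraries in all 5 as well.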

How the data were processed

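PolyA RNA-seq libraries of BJ cells were grouped from the sample labels: control (1 library), senescent (2), lncRNA-OIS1 knockdown (4), p53 knockdown (1) and BRD7 knockdown (1). The authors deposited 1 table of a signal per gene and library, read counts already normalised. Per the submitters' processing notes TopHat2, HTSeq and hg19 were used, with roles, versions and annotation not given in the sources used here. All 9 columns of the deposited table hold the same set of values (total 14916466.5, median 340.1, floor 20, with 1375 genes at the floor in each), which removes differences in total RNA and hides the depth, so no counting interval is given.

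Values were compared as deposited, on the log2 scale with no pseudocount, for genes with a highest value of at least 40. With 1 library a side no test was run. Folds against the floor are lower bounds. Of the symbols, 1030 were missing and 21 had become dates, and 849 were filled by Ensembl identifier. Named genes were a fixed set of 26, the 15 largest rises and falls, up to 3 per list and direction, and the largest of each class. Other named genes, such as ZMAT3, TK1, TAGLN and those whose promoters are shown, were chosen after their values were seen. The 22 lists and the members were chosen with earlier results of these data known. Reads of overlapping or near-identical genes could be exchanged, since how counting treated strand and multi-mapping was not given in the sources used here. Results were recomputed with a pseudocount of 10 or 50, with no filter, with genes whose mean reached 80, with median-of-ratios scaling, with RAS cuts of 2- and 8-fold, and without each senescent library. Leaving out genes at the floor and the p53 site search were added after seeing the data. Promoter windows are RefSeq sequences of GRCh38.p14, and no coordinate was converted from hg19. The level of the knocked-down gene is not reported here. The counting code was tested on simulated data. Python 3.11.15, pandas 2.3.3, numpy 2.4.6 and matplotlib 3.10.9 were used.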

Additional observations from a re-analysis of the deposited data

Results flagged for a closer look

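3 gene lists and a pair of genes lay on opposite sides of the control with p53 knockdown and in both senescent libraries; these differences were not tested. The median log2 difference of the mitosis list was 1.22 with p53 knockdown and -0.77 and -1.19 in the senescent libraries. For DNA replication and E2F targets it was 0.62, against -0.92 and -1.06. For homologous recombination and Fanconi repair it was 0.82, against -0.67 and -0.89. SOD3 was at -1.28 with p53 knockdown and at 2.49 and 2.63 in the senescent libraries, and ADAMTS19 at -1.71, against 2.30 and 2.31.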

How the results depend on the processing

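No paired analysis was possible because the control and the p53 knockdown have 1 library each. Median-of-ratios scaling and no filter left every count within 1.5 times of that reported, and no list median or named gene at least 2-fold from control changed sign under any alternative run. Keeping the sign does not mean keeping the size. With a pseudocount of 10, 84 named-gene results were scored as moved and 114 as the same, and with 50 these were 133 and 65. A pseudocount of 50 lowered the counts against control to 754 higher and 901 lower at 2-fold, 120 and 244 at 4-fold, and 42 and 80 at 8-fold. It left 138 RAS-raised genes (74 remained, 40 reduced, 22 near control) and 197 RAS-lowered (149, 40 and 8), and 7 higher and 16 lower with p53 knockdown while near control in senescence. A pseudocount of 10 gave 14 lowered genes near control. The genes higher with p53 knockdown while near control in senescence numbered 16 with it and 19 with a mean of at least 80. Without genes at the floor, 62 genes were 8-fold higher, 28 raised genes were near control and 146 lowered genes remained.

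In the runs with another RAS cut, the same cut was applied to the p53 knockdown library. Remained thus means at least 2-fold in the 2-fold run and at least 8-fold in the 8-fold run. In the 2-fold run no gene can be scored as reduced. With RAS changes taken at 2-fold, 979 genes were raised (522 remained, 0 reduced, 447 near control, 10 opposite) and 1154 lowered (734, 0, 404 and 16). At 8-fold, 102 were raised (55, 37, 10 and 0) and 120 lowered (93, 25 and 2). Without senescent replicate 1 or 2, the lowered genes near control numbered 43 or 27. Over the settings that kept the 4-fold cut, the share that remained was 53.6% to 60.9% of raised and 65.3% to 75.6% of lowered genes. By their own cuts the shares were 53.3% and 63.6% at 2-fold and 53.9% and 77.5% at 8-fold. Fold changes near the floor are limited by it: with a pseudocount of 50 the median log2 difference of extracellular matrix genes was -1.47.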
